A study of Mus musculus with 8 samples.

Results

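The transcripts described here encode 10 heat shock proteins, found by gene symbol among the 55401 genes of each deposited table. The 10 genes are Hspa1a, Hspa1b, Hspa8, Hsph1, Dnaja1, Dnajb1, Hsp90aa1, Hsp90ab1, Hspb1 and Hspe1, and all 10 were found. Of the products, 9 work mainly in the cytosol and nucleus, and that of Hspe1 works in the mitochondrial matrix. Heat shock proteins are chaperones, which bind unfolded or newly made proteins and help them fold, travel or be degraded. In the Hsp70 cycle a J protein delivers the client and sets off ATP hydrolysis, and a nucleotide exchange factor such as Hsp110 resets the Hsp70, which can pass its client on to Hsp90. Many of these genes are induced by heat shock factor 1 (HSF1), which binds inverted repeats of GAA called heat shock elements, while Hspa8 and Hsp90ab1 are made at high levels without stress.

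The study knocked down Tbl1xr1, a subunit of NCoR and SMRT corepressor complexes, in the regenerating liver of C57BL/6J mice. In the knockdown mice an adeno-associated virus directed at hepatocytes carried a hairpin against Tbl1xr1 (shTbl1xr1, 4 libraries), and in the control mice a control hairpin (shNC, 4 libraries). In both groups 2/3 of the liver was removed 4 weeks after the virus, and whole liver was taken 2 days after surgery, so neither group is an unoperated liver. The sources used here give no age, sex or hairpin promoter. They also do not state that the 4 libraries of a group came from 4 animals, and a p-value then covers only library-to-library spread, part of which could be technical. Because RNA came from whole liver, fewer cells of a type and less RNA per cell cannot be told apart.

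Libraries held 10895508, 10728583, 26976205 and 36720879 expected counts in shTbl1xr1 1 to 4 and 25811763 to 27537235 in shNC. The libraries shTbl1xr1 1 and 2, called the shallow pair here, also stood apart in mitochondrially encoded counts (11.3% and 14.8%, against 4.52% and 6.26% in the deeper shTbl1xr1 3 and 4 and 4.96% to 7.34% in shNC). Tbl1xr1 itself had 2.38, 2.07, 9.24 and 15.9 CPM (counts scaled by library size and TMM factor) in shTbl1xr1 1 to 4, against 27.2 to 35.9 CPM in shNC, with no overlap (edgeR log2 fold change -2.07, SE 0.54, adjusted p = 0.290). The 9 of 10 listed liver markers found summed to 97081, 111235, 58890 and 84851 CPM in shTbl1xr1 1 to 4 and 64151 to 84211 CPM in shNC. Single markers in the shallow pair went both ways, as these examples, chosen after their values were seen, show. Apoa1 had 16027 and 18942 CPM (5475 to 8424 in shNC), and Tat had 982 and 751 CPM (1034 to 1592 in shNC). Alb, the most abundant, lay inside the shNC range. Where leaving out the shallow pair turned or clearly moved a value, both values are given.

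Hspa1a and Hspa1b, the strongly heat-inducible Hsp70 genes, lie next to each other on chromosome 17 and are near-identical copies. Their annotated coding sequences, of 1923 and 1926 bases, differ by 8 substitutions and a gap of 3 bases (99.6% identity over aligned bases). Exact matches of 100 bases to the other transcript cover 47.1% of the windows of Hspa1a and 49.9% of those of Hspa1b. The counting therefore shares many fragments between them by estimate, and they are also given here as a sum. The 250 bases before their start sites are shown because they carry the same motif and differ at 3 positions in all. Sequences are from RefSeq on GRCm38.p6, the assembly that mm10 denotes, read 5′ to 3′ in the direction of the gene, with capitals marking the heat shock element motifs GAANNTTC and TTCNNGAA.
Hspa1a (chr17:34972157-34972406, minus strand): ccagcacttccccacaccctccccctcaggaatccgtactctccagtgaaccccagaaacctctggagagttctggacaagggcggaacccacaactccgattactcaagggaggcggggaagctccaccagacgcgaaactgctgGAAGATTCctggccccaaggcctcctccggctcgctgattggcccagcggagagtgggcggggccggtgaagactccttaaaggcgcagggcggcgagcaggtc
Hspa1b (chr17:34959239-34959488, minus strand): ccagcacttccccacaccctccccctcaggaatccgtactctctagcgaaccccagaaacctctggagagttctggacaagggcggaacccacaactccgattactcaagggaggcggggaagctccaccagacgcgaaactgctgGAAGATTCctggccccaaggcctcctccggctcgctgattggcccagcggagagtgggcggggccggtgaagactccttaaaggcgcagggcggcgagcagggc
Counted from 1 at the 5′ end of these sequences, with the base of Hspa1a given before that of Hspa1b, the differences were C44T, T47C and T249G. None of them lay in the capitals.

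Windows of 250 bases before and 50 after the start site were given for 7 of the 10 genes, and 6 of these (Hspa1a, Hspa1b, Hspe1, Hspb1, Hsph1 and Dnaja1) held an 8-base motif in at least 1 window. A gene can have several start sites, and 7 of the 11 windows of these genes held one. Each 8-base motif is its own reverse complement, so 1 scan covers both strands, and neighbouring matches may share 3 bases. Over all 32851 windows of this length, 15.1% held either motif, and 0.60% held a longer run, GAANNTTC with a further GAA after 2 more bases, or its reverse complement. Hspe1 and Hsph1 held that longer run. Both windows of Dnajb1 held none, and a match or its lack describes these letters only. The motifs of Hspe1, Hspb1 and Hsph1 are shown because they differ in how many units stand in a row. For Hspe1 and Hsph1 only 30 bases are given.
Hspe1 (chr1:55088053-55088082, plus strand): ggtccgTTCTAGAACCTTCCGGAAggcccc
Hsph1 (chr5:149636351-149636380, minus strand): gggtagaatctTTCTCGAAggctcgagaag
Hspb1 (chr5:135887769-135887918, plus strand): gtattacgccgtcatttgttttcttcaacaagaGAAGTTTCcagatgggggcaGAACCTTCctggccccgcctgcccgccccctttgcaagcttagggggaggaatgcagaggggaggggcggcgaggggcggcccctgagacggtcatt
In Hspe1 the matches overlap, and 4 alternating TTC and GAA units stand in a row, from 89 to 72 bases before its start, and the same run lies in the window of Hspd1, the divergent neighbour. Hspb1 has separate matches, and Hsph1 has the match shown and, within the 50 bases after the same start, a longer run.

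None of the 10 heat shock genes passed the threshold in shTbl1xr1 against shNC by edgeR's quasi-likelihood test (adjusted p between 0.367 and 0.989). The background for that count is low, since 0.0503% of the 13908 genes tested passed in either direction (0.0431% higher and 0.00719% lower). All 10 genes passed the filter on low counts. At an unadjusted p under 0.05, 2 of the 10 (Hsph1 and Hsp90aa1) were lower and 0 were higher, where 3.71% of all genes tested were lower and 7.9% higher. That count was 1, Hsph1 alone, when shNC 1, 3 or 4 or shTbl1xr1 1 or 4 was left out. In those settings 2.07% to 11.1% of all genes tested were lower at that p. Without shTbl1xr1 3 the count was 4 (Hspa8, Dnajb1 and Hsph1 lower, Hspe1 higher). There 839 of the 14081 genes tested (5.96%) were lower and 1715 were higher. With all 8 libraries the log2 fold change was negative for 8 of the 10 genes and 49.4% of all genes. It was -0.5 or lower for 3 of the 10 (Hsph1, Hspa1b and Hspa8) and 9.91% of all genes. The median was -0.36 for the 10 genes and 0.01 for all genes. In 0 of the 10 genes did the groups part without overlap, where 3.37% of all genes had every shTbl1xr1 library below every shNC library and 3.88% had every one above. DESeq2 called 0 of the 10 genes, against 0.324% of all genes called lower and 1.74% called higher.

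**Figure D1:**
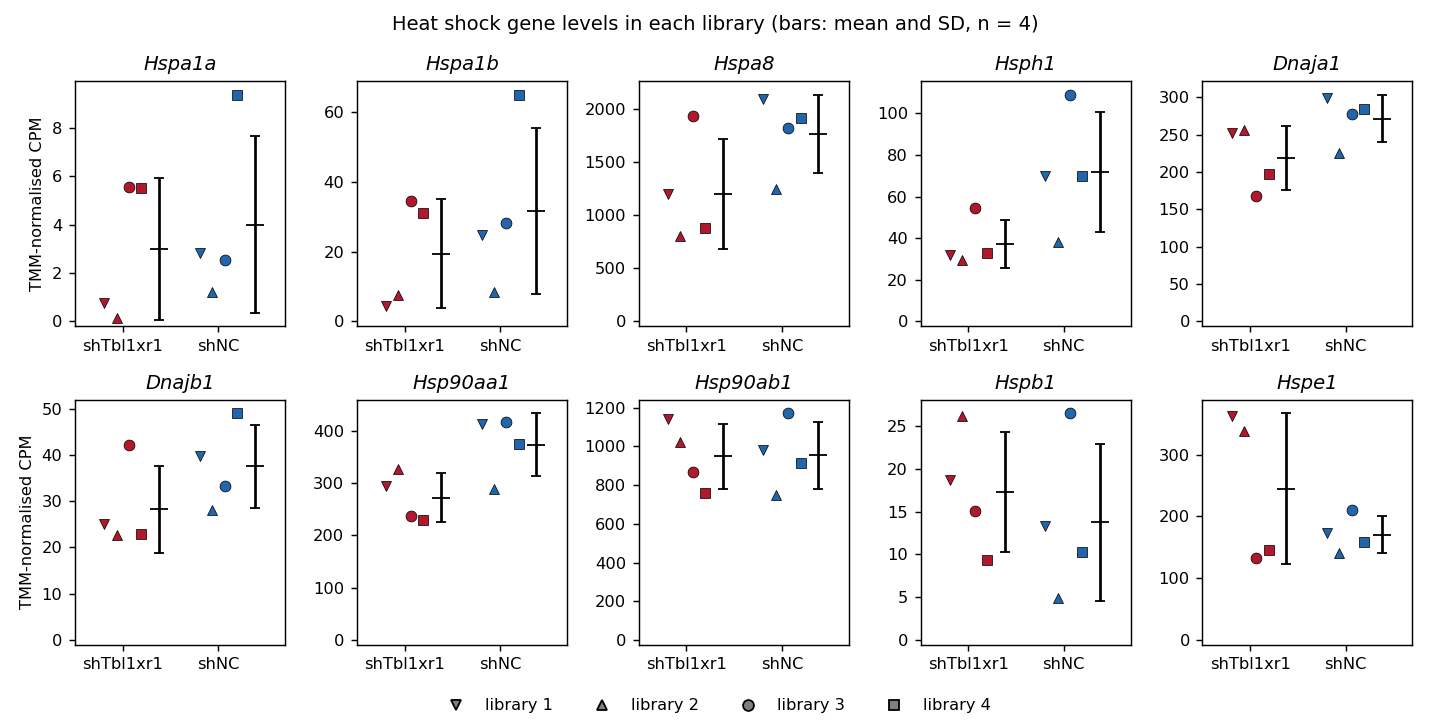
TMM-normalised CPM of the 10 heat shock genes (vertical axes, from 0) in each shTbl1xr1 and shNC library, with marker shapes for libraries 1 to 4 and bars for the mean and SD of 4 libraries. In every panel the groups overlap, and Hspe1 splits shTbl1xr1 into libraries 1 and 2, at 362 and 338 CPM, and libraries 3 and 4, at 133 and 146 CPM.

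Levels of different genes are set side by side per length, in deposited TPM. In shNC livers the order was Hspa8 at 1082 ± 204 TPM, Hsp90ab1 at 545 ± 119, Hspe1 at 408 ± 91.0, Hsp90aa1 at 176 ± 23.8 and Dnaja1 at 173 ± 26.7 TPM (SD, n = 4 each). Hsph1 (32.0 ± 13.1 TPM), Hspb1 (26.9 ± 19.5), Dnajb1 (17.5 ± 4.29), Hspa1b (16.0 ± 12.4) and Hspa1a (1.90 ± 1.78) followed. Hspa8 stood above Hsp90ab1, and Hsp90ab1 above Hspe1, in each shNC library, while Hsp90aa1 and Dnaja1, and the 4 genes from Hsph1 to Hspa1b, were neighbours within their spread. In shTbl1xr1 livers the same 3 genes were the highest by mean, with Hspa8 at 599.8 ± 428 TPM, Hsp90ab1 at 384 ± 121 and Hspe1 at 364 ± 37.6 TPM, and Hspa1a was again the lowest at 1.41 ± 1.51 TPM (SD, n = 4 each). Their order differed by library, since Hspe1 was the highest in the shallow pair, at 418 and 347 TPM, where Hspa8 had 398 and 242 TPM, and Hspa8 was the highest in the deeper pair, at 1214 and 546 TPM. On the TPM scale, which is relative to all transcripts of a library per length and was not tested, Hsp90aa1 (68.9 to 126.5 TPM in shTbl1xr1, against 144 to 201 TPM in shNC) and Dnaja1 (46.2 to 131 TPM in shTbl1xr1, against 148 to 199 TPM in shNC) did not overlap between groups, whereas they did in CPM. On the TPM scale 5.72% of all genes tested had every shTbl1xr1 library below every shNC library. The constitutive Hspa8 made up 96.7% to 99.7% of the Hsp70 TPM (Hspa8, Hspa1a and Hspa1b) in shTbl1xr1 and 96.9% to 99.4% in shNC. The 10 genes together took 0.191% to 0.402% of counts in shTbl1xr1 and 0.303% to 0.477% in shNC.

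The inducible Hsp70 genes varied most from library to library. Hspa1b had 4.51, 7.46, 34.5 and 31.1 CPM in shTbl1xr1 1 to 4, against 24.9, 8.52, 28.2 and 65.1 CPM in shNC 1 to 4. The lowest values were in the shallow pair, the deeper pair lay inside the shNC range, and the groups overlapped. Its log2 fold change was -0.67 (SE 0.70, edgeR adjusted p = 0.684), and between -1.09 and -0.05 with 1 library left out, the last without shNC 4. Hspa1a had 0.75, 0.14, 5.54 and 5.53 CPM in shTbl1xr1 1 to 4, from 6, 1, 172 and 223 counts, against 2.84, 1.21, 2.56 and 9.37 CPM in shNC 1 to 4, from 79, 37, 77 and 275 counts. The values of the shallow pair rest on few counts (log2 fold change -0.29, SE 0.84, edgeR adjusted p = 0.895).

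Summed as 1 gene, Hspa1a and Hspa1b had 5.26, 7.60, 40.1 and 36.7 CPM in shTbl1xr1 1 to 4, against 27.8, 9.73, 30.7 and 74.5 CPM in shNC 1 to 4. The summed log2 fold change was -0.64 (SE 0.72, edgeR adjusted p = 0.707). It was 0.10 without the shallow pair and -2.48 (adjusted p = 0.097) without the deeper pair, so its direction turned with the libraries used. Left out alone, shNC 4, the library with the highest level, brought it to 0.01. Hspa1b held 84.9% to 98.2% of the summed counts in shTbl1xr1 and 87.4% to 91.7% in shNC. Gm20481, annotated across Hspa1a on the opposite strand, had 1 count over all 8 libraries.

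Hspa8, the constitutive Hsp70 that folds new proteins and uncoats clathrin vesicles, had 1199.5, 804, 1934 and 877 CPM in shTbl1xr1 1 to 4, against 2094, 1244, 1824 and 1916 CPM in shNC 1 to 4. Libraries shTbl1xr1 1, 2 and 4 lay below every shNC library, and shTbl1xr1 3 lay within their range. The log2 fold change was -0.56 (SE 0.32, edgeR adjusted p = 0.484), or -0.33 without the shallow pair. Of the shTbl1xr1 libraries, the high library 3 also had the highest summed CPM of bile duct markers (249, against 53.1 to 72.0 in the other 3 and 42.1 to 128 in shNC) and of stellate cell markers (745, against 251 to 414 in the other 3 and 393 to 693 in shNC). The part of those cells in the level of Hspa8 was not tested.

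Among the partners of Hsp70, Hsph1 had the lowest fold change of the 10 genes. Hsph1 encodes Hsp110, a nucleotide exchange factor for Hsp70, and had 32.0, 29.4, 54.4 and 32.9 CPM in shTbl1xr1 1 to 4, against 69.9, 38.3, 109 and 70.0 CPM in shNC 1 to 4. The overlap came from shTbl1xr1 3 and shNC 2, and the other 3 shTbl1xr1 libraries lay below all of shNC. The log2 fold change was -0.94 (SE 0.32, unadjusted p = 0.0145, edgeR adjusted p = 0.367). It was -0.72 without the shallow pair and between -1.19 and -0.67 with any 1 library left out.

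Dnajb1, the J protein that joins Hsp70 in stress and in breaking up aggregates, had 25.0, 22.7, 42.2 and 22.9 CPM in shTbl1xr1 1 to 4, against 39.7, 28.1, 33.2 and 49.0 CPM in shNC 1 to 4. As for Hspa8 and Hsph1, library 3 was the highest of the shTbl1xr1 libraries and the other 3 lay below all of shNC (log2 fold change -0.41, SE 0.25, edgeR adjusted p = 0.504, and -0.21 without the shallow pair). The share of all genes with this pattern was not counted. Dnaja1, a J protein that is farnesylated and works with Hspa8, had 252, 257, 168 and 197 CPM in shTbl1xr1 1 to 4, against 299, 226, 279 and 284 CPM in shNC 1 to 4. Here the deeper pair was the lower one, and shNC 2 lay below both shallow libraries. Its log2 fold change was -0.32 (SE 0.20, edgeR adjusted p = 0.504), or -0.58 without the shallow pair and -0.10 without the deeper pair. The gene span of Dnaja1 overlaps Smu1 by 608 bases on the opposite strand, which had 425 to 1819 counts a library. Whether the counting used strand is not given here, so reads in that stretch are uncertain.

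Both Hsp90 genes encode cytosolic Hsp90, the ATP-driven chaperone of kinases and steroid receptors, Hsp90aa1 the inducible form and Hsp90ab1 the constitutive one. Both had higher CPM in the shallow than in the deeper pair, and both were lowest among shNC in shNC 2. Hsp90aa1 had 295, 326, 236 and 229 CPM in shTbl1xr1 1 to 4, against 413, 288, 417 and 375 CPM in shNC 1 to 4. All shTbl1xr1 libraries lay below shNC 1, 3 and 4, and the low shNC 2 made the groups overlap. The log2 fold change was -0.46 (SE 0.20, unadjusted p = 0.0467, edgeR adjusted p = 0.426), and -0.69 without the shallow pair (adjusted p = 0.280).

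Hsp90ab1 had 1143, 1020.4, 869 and 759 CPM in shTbl1xr1 1 to 4, against 979, 749, 1171 and 914 CPM in shNC 1 to 4. The group means differed by little, at 948 ± 169 CPM in shTbl1xr1 and 953 ± 174 CPM in shNC (SD, n = 4 each). The log2 fold change was -0.01 (SE 0.23), but -0.23 (SE 0.21) without the shallow pair and 0.18 without the deeper pair. The mean log2 difference from shNC was 0.20 in the shallow pair and -0.21 in the deeper pair. The sign of the value with all libraries turned under several settings, among them limma-voom (0.03). The ratio of Hsp90ab1 to Hsp90aa1 within a library, which does not depend on library scaling, was 4.51, 3.64, 4.62 and 3.57 in TPM in shTbl1xr1 1 to 4, against 2.77, 3.00, 3.54 and 3.01 in shNC 1 to 4. Every shTbl1xr1 library was above every shNC library, by a narrow margin between shTbl1xr1 4 and shNC 3. It was 1 of 7 ratios computed and got no test. Over all pairs of tested genes with no TPM of 0, 6.84% had TPM ratios whose groups did not overlap in either direction.

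Hspb1 and Hspe1 were the 2 genes with positive log2 fold changes. Hspb1, a small heat shock protein that holds unfolded proteins and binds actin, had 18.7, 26.1, 15.1 and 9.35 CPM in shTbl1xr1 1 to 4, against 13.3, 4.90, 26.5 and 10.3 CPM in shNC 1 to 4. Its range in shNC took in all shTbl1xr1 libraries (log2 fold change 0.31, SE 0.48, edgeR adjusted p = 0.784). The value was 0.04 without shNC 2, the lowest shNC library, 0.85 without shNC 3, the highest, and 0.05 without shTbl1xr1 2. Hspe1, the lid of the mitochondrial Hsp60 chamber, had 362, 338, 133 and 146 CPM in shTbl1xr1 1 to 4, against 173, 140.1, 210.4 and 158 CPM in shNC 1 to 4. The shallow pair was far above shNC and the deeper pair was near its lower end (log2 fold change 0.52, SE 0.35, edgeR adjusted p = 0.527, and -0.29 without the shallow pair).

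Hspd1, which encodes the Hsp60 chamber and starts from the same divergent promoter as Hspe1, had 400, 393, 290.4 and 449 CPM in shTbl1xr1 1 to 4, against 397, 350, 454 and 378 CPM in shNC 1 to 4 (log2 fold change -0.04, SE 0.19). The annotated spans of these genes overlap by 112 bases on opposite strands, and with 2845 to 18100 counts of Hspd1 a library, reads in that stretch of the short Hspe1 are uncertain. The TPM ratio of Hspe1 to Hspd1 was 3.57 and 3.44 in the shallow pair, 1.76 and 1.26 in the deeper pair, and 1.53 to 1.83 in shNC.

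Transcript length moved with these values. Mean effective lengths were 544 bases for Hspe1 and 672 for Hspb1, and 2062 to 2895 for the other 8 genes. In the shallow pair, the 2291 tested genes under 1000 bases had a median log2 difference from shNC of 0.79, and the 2441 genes of 4000 bases or more one of -0.60. In the deeper pair the same medians were -0.13 and 0.12. Among the 5166 genes of 2000 to 4000 bases, where the other 8 heat shock genes lie, the median was -0.26 in the shallow pair and 0.04 in the deeper pair. An alternative chosen after seeing the data removed each library's trend over length. The log2 fold change was then 0.03 for Hspe1 (SE 0.18) and -0.06 for Hspb1. It was -0.84 for Hsph1 (edgeR adjusted p = 0.233), -0.64 for Hspa1b and -0.53 for Hspa8. For Hsp90aa1 it was -0.34 (edgeR unadjusted p = 0.142, adjusted p = 0.467). Dnajb1 had -0.31, Hspa1a -0.27, Dnaja1 -0.25 and Hsp90ab1 0.05.

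**Figure D2:**
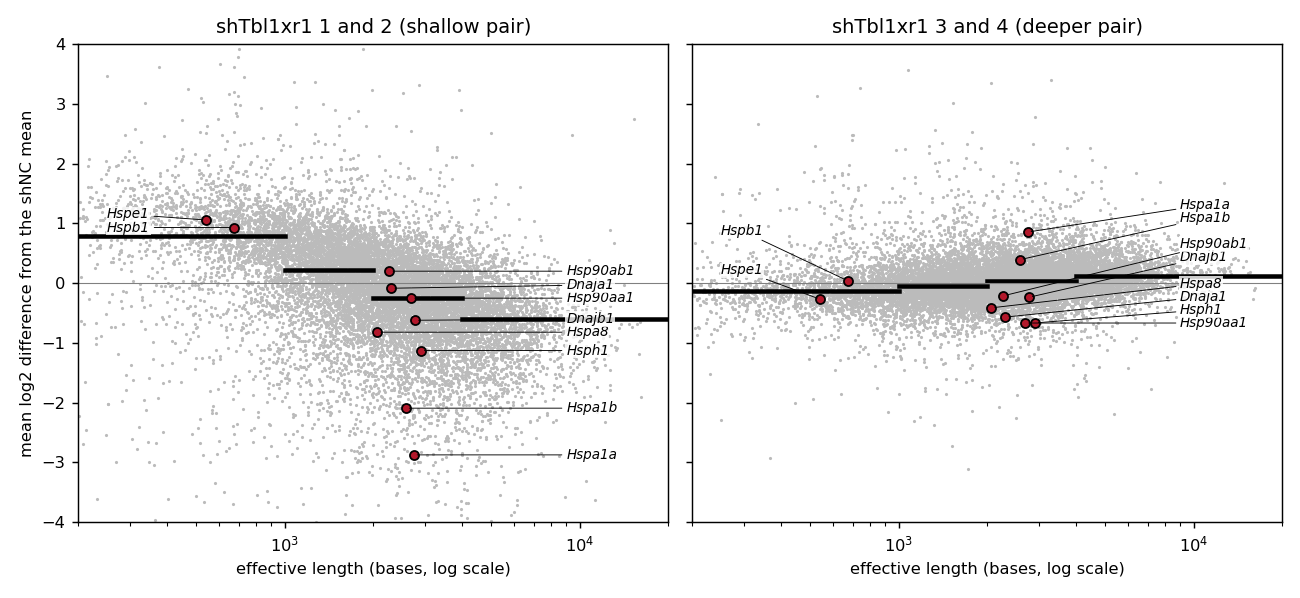
Mean log2 difference from the shNC mean (vertical axis) against effective length in bases (log scale) for tested genes in grey, with the 10 heat shock genes in red and black bars at the median of 4 length classes, for the shallow pair shTbl1xr1 1 and 2 (left) and the deeper pair shTbl1xr1 3 and 4 (right). The medians go from 0.79 to -0.60 with length on the left and from -0.13 to 0.12 on the right, and 165 and 118 genes lie outside the axes.

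The shallow and the deeper pair of shTbl1xr1 libraries gave different pictures of the family. In the shallow pair the mean log2 difference from shNC was -2.88 for Hspa1a, -2.09 for Hspa1b, -1.13 for Hsph1, -0.82 for Hspa8 and -0.62 for Dnajb1, against 1.05 for Hspe1 and 0.93 for Hspb1. In the deeper pair it was 0.85 for Hspa1a, 0.39 for Hspa1b, -0.67 for Hsph1, -0.41 for Hspa8 and -0.24 for Dnajb1. The deeper pair had its lowest values in Hsp90aa1 (-0.67), Hsph1 (-0.67) and Dnaja1 (-0.57), where the shallow pair had -0.25, -1.13 and -0.09. The pair means of Hsph1, Hspa8, Dnajb1, Hsp90aa1 and Dnaja1 were thus negative in both pairs. For Hspa8 and Dnajb1 the libraries of the deeper pair differed in sign. Library 3 had 0.155 and 0.201, and library 4 had -0.985 and -0.678.

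**Figure D3:**
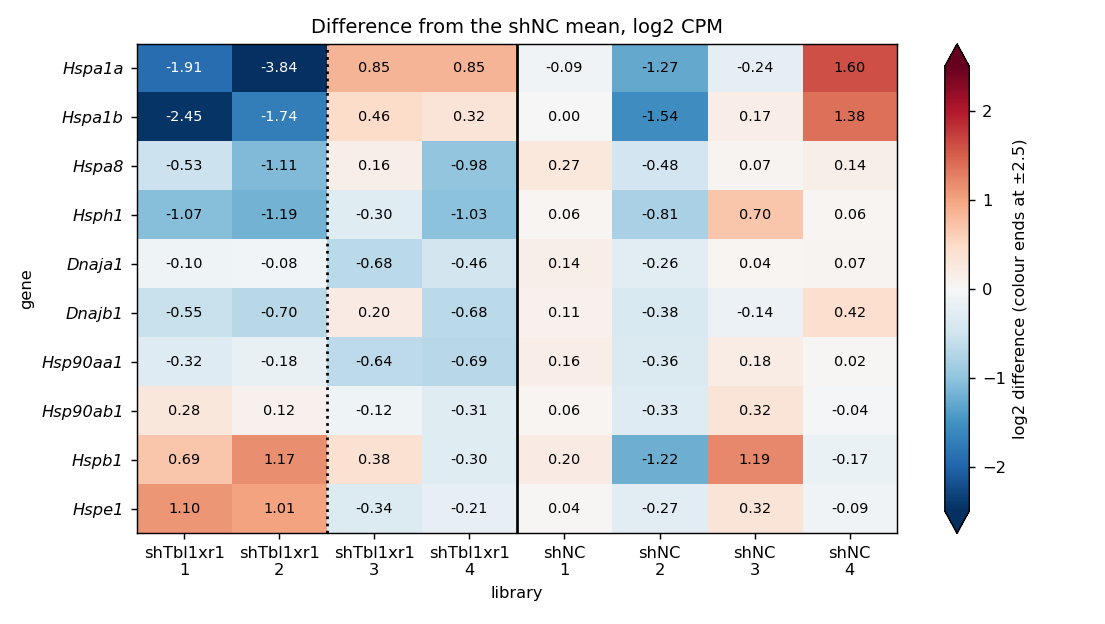
Log2 difference of each library from the shNC mean (colour and printed value) for the 10 heat shock genes in rows and the 8 libraries in columns, shTbl1xr1 left of the solid line, with the dotted line after the shallow pair. Hspa1a and Hspa1b range from -3.84 to 1.60, and Hsp90aa1 is negative in all 4 shTbl1xr1 libraries.

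When the shallow pair was the only shTbl1xr1 material, edgeR called 4 of the 10 genes. Hsph1 (log2 fold change -1.23, adjusted p = 0.0456), Hspa8 (-0.82, 0.0247) and Dnajb1 (-0.66, 0.0398) were lower and Hspe1 (1.04, 0.00121) was higher. In that comparison 21.1% of the 14314 genes tested were called lower and 21.5% higher, so 4 of 10 is close to the background. Without the shallow pair 0 of the 10 genes were called (lowest adjusted p 0.280), where 0.0478% of the 14645 genes tested were. At an unadjusted p under 0.05 Hsp90aa1 and Dnaja1 were lower there, and so were 4.62% of all genes tested. The shallow pair also had the lower Tbl1xr1 and lower summed markers of macrophages (328 and 356 CPM, against 702 and 757 in the deeper pair and 611 to 971 in shNC) and endothelial cells (219 and 202 CPM, against 366 and 352 in the deeper pair and 329 to 373 in shNC). Depth, length trend, the levels of these markers and the level of Tbl1xr1 thus moved together, and their part in these values was not tested.

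**Figure D4:**
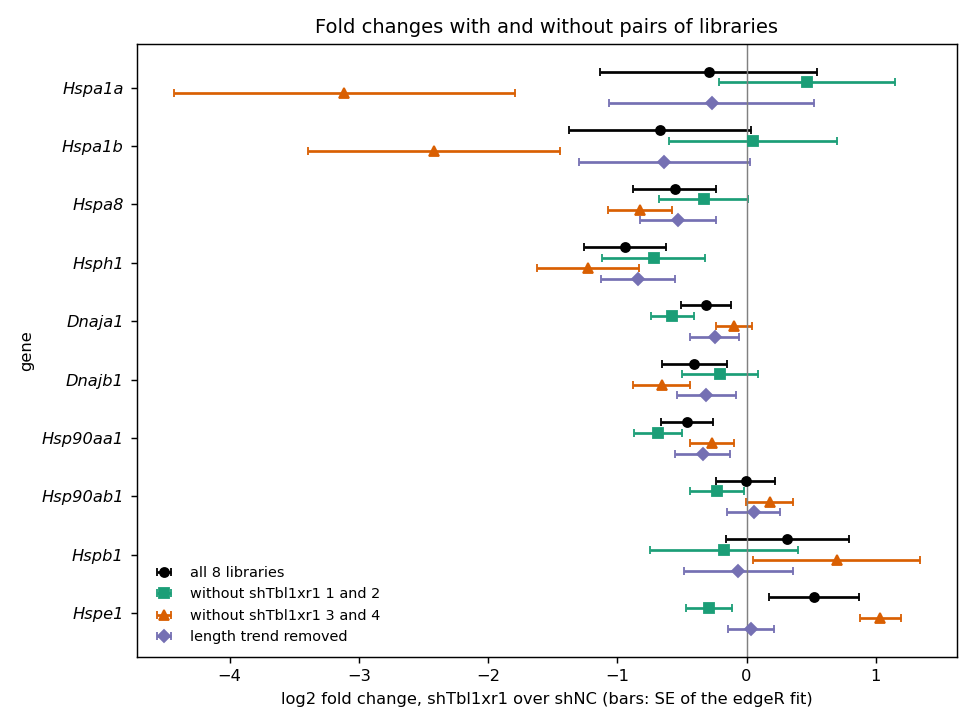
Log2 fold change of shTbl1xr1 over shNC (horizontal axis, bars for the SE of the edgeR fit) for the 10 heat shock genes with all 8 libraries, without shTbl1xr1 1 and 2, without shTbl1xr1 3 and 4, and with the length trend removed. Hspa1b is at 0.05 without the shallow pair and at -2.42 without the deeper pair, and Hsph1 and Hsp90aa1 are negative in all 4 settings.

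The wider chaperone network was read from 11 lists, and in each 0 genes passed the threshold over all genes, with or without the shallow pair. Of the heat shock factors, 3 of 4 were tested, and Hsf1, the main activator of the heat shock response, had 11.4 to 14.6 CPM in shTbl1xr1 and 12.5 to 14.6 CPM in shNC (log2 fold change -0.05, SE 0.15, edgeR adjusted p = 0.897). The factor with the smallest p was Hsf4 (0.23, SE 0.23), which had 0.01 without the shallow pair. The 18 other targets of HSF1, several of which are also in other lists, had a median log2 fold change of -0.18. Of these targets 13 were negative and 2 were lower at an unadjusted p under 0.05. Over all genes tested 49.4% were negative and 3.71% were lower at that p. Without the shallow pair 14 targets were negative and 4 were lower, where 4.62% of all genes tested were lower. Dnajb4, a J protein among these targets, had at most 28.1 CPM in shTbl1xr1 and at least 28.3 CPM in shNC. The groups of Dnajb4 thus parted by a narrow margin (log2 fold change -0.49, SE 0.17, edgeR adjusted p = 0.376).

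Among cofactors of the cytosolic chaperones, the 7 other Hsp70 and Hsp110 genes had a median of -0.16, with 5 negative, or 0.07 with 2 negative without the shallow pair, and Hspa4, another Hsp110, had -0.20 (edgeR adjusted p = 0.544). The 14 other J proteins had a median of -0.06 (-0.17 without the shallow pair). At an unadjusted p under 0.05, 3 were lower and 0 higher, where 3.71% of all genes tested were lower and 7.9% higher. Without the shallow pair 1 was lower and 1 higher at that p. The groups parted without overlap in 2 J proteins lower in shTbl1xr1 and 1 higher, against 3.37% and 3.88% of all genes. The smallest p was that of Dnajb5 (-0.73, SE 0.21, edgeR adjusted p = 0.327). Its shTbl1xr1 libraries (2.49 to 3.61 CPM) lay below shNC (4.12 to 5.85 CPM). The 7 nucleotide exchange and BAG factors had a median of 0.09. Their smallest p was that of the Hsp70-binding Hspbp1, at 0.71 (SE 0.28), which had 51.3 and 39.4 CPM in the shallow pair, 26.1 and 19.98 CPM in the deeper pair and 16.5 to 24.5 CPM in shNC, and a log2 fold change of 0.14 without the shallow pair. The 19 cochaperones of Hsp90 had a median of 0.02 with 8 negative, or -0.19 with 17 negative without the shallow pair, and the cyclophilin Ppid had -0.31 (SE 0.17). Of 7 other small heat shock proteins 4 were tested, with a median of 0.05 (-0.57 without the shallow pair), and Hspb2 had -0.55 (SE 0.44). Their mean log2 difference from shNC was 0.38, 0.26, -0.15 and -0.71 in shTbl1xr1 1 to 4.

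The 14 subunits of the cytosolic chaperonin and prefoldin had a median of 0.22, with 12 positive, but a median of -0.11 with 11 negative without the shallow pair. The mean log2 difference of these subunits from shNC was 0.65 and 0.53 in the shallow pair and -0.02 and -0.23 in the deeper pair. The smallest p with all libraries was that of the prefoldin subunit Pfdn5 at 0.72 (SE 0.31), which had 0.06 without the shallow pair. Like Hspe1, Pfdn5 was high in the shallow pair, at 136 and 141 CPM, against 79.2 and 47.4 CPM in the deeper pair and 55.3 to 63.3 CPM in shNC. The 14 mitochondrial chaperones and proteases had a median of -0.05. In Clpx, the unfoldase of the mitochondrial ClpXP protease, all shTbl1xr1 libraries (88.6 to 111 CPM) lay below shNC (133 to 168 CPM; log2 fold change -0.59, SE 0.15, edgeR adjusted p = 0.290).

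Chaperones of the endoplasmic reticulum, the secretory counterpart of the family, had a median of -0.20, with 14 of 16 negative. At an unadjusted p under 0.05, 4 were lower, as were 3.71% of all genes tested. Without the shallow pair the median was -0.52 with 15 negative. There 6 were lower at that p, as were 4.62% of all genes tested. The mean log2 difference of this list from shNC was -0.23, 0.05, -0.22 and -0.93 in shTbl1xr1 1 to 4, so library 4 was the lowest by far. Hsp90b1, the Hsp90 of that compartment, had 557, 684, 564 and 524 CPM in shTbl1xr1 1 to 4, against 911, 1042, 1054 and 874 CPM in shNC 1 to 4. Its groups did not overlap in either pair of shTbl1xr1 libraries (log2 fold change -0.74, SE 0.19, edgeR adjusted p = 0.290). The 15 tested immediate early genes, which respond to stress and handling, had a median of -0.03 with 8 negative. Without the shallow pair 16 were tested, with a median of 0.17. Jund had 1.05 (SE 0.36, edgeR adjusted p = 0.370), or 0.32 without the shallow pair.

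**Figure D5:**
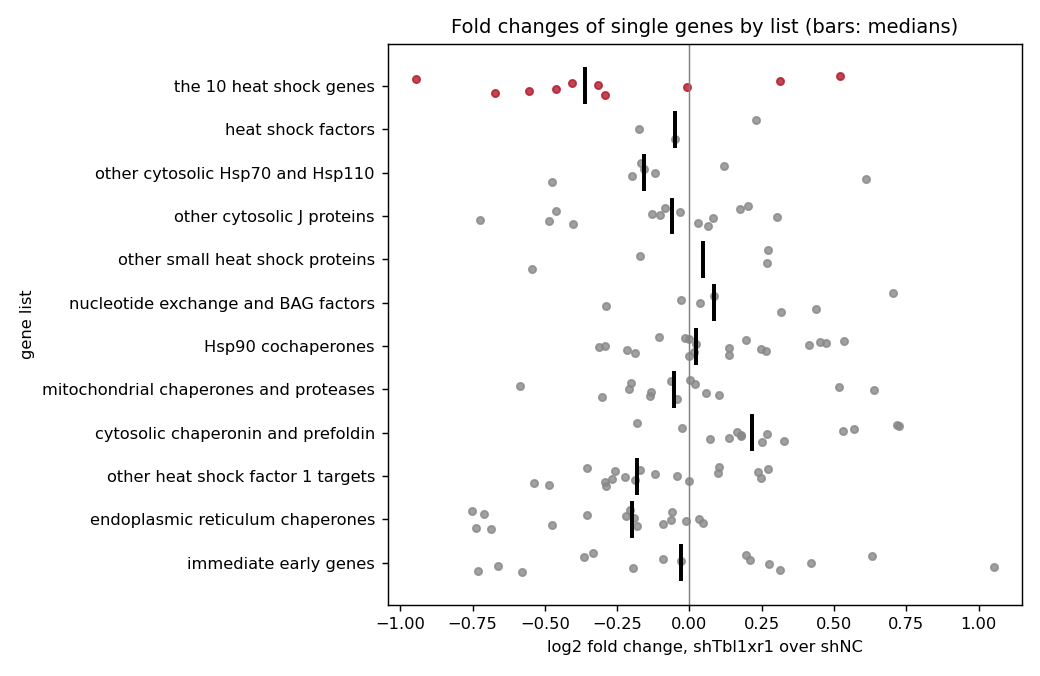
Log2 fold change of shTbl1xr1 over shNC (horizontal axis) for single genes (points) in the 10 heat shock genes and in 11 chaperone and stress lists, with bars at the medians. The 10 heat shock genes have a median of -0.36, and the lists have medians between -0.20 and 0.22 with all 8 libraries.

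Within the family, likeness of pattern was measured over the 8 libraries as the root mean square difference of centred log2 CPM. The most alike genes were Hsp90aa1 and Dnaja1 (0.12), followed by Hspa8 and Dnajb1 (0.21), Hsp90ab1 and Dnaja1 (0.23) and the Hsp90 genes with each other (0.25). The least alike were Hspa1a and Hspe1 (2.10), and the near-identical Hspa1a and Hspa1b had 0.82. The measure takes in the size of the differences, so genes of small spread can come out as alike. Outside the family, over 9237 genes with a mean of at least 5 CPM, Cd47 (0.12), Acadl (0.12) and Bdh1 (0.14) were nearest to Hsp90aa1. Fzd1 (0.10), Axin2 (0.19) and Dcbld1 (0.20) were nearest to Dnajb1, and P4ha1 (0.24), Slc25a22 (0.25) and Tnfrsf11b (0.26) to Hsph1. The nearest to Hspa1b were Col5a2 (0.55), Slco1a4 (0.61) and Tppp (0.61), where the spread of Hspa1b itself was 1.24. That spread was 0.315 for Hsp90aa1, 0.398 for Dnajb1 and 0.637 for Hsph1. These values share the 8 libraries, their depth and the split of the shallow pair, and they describe likeness only.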

How the data were processed

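RNA of whole mouse liver was sequenced as 8 libraries, and the authors deposited a table of 55401 genes for each. Its columns are, per the file headers, the expected count (the estimated fragments of a gene) and the TPM and FPKM, which the authors scaled by effective length and library total. Effective length and length are in other columns, and FPKM was not analysed. Per the submitters' processing notes the build was mm10 and the tools were DESeq2 1.30.1, RSEM and STAR. The sources used here give no options, strand setting or annotation release. RSEM divides fragments that match several genes, so near-identical genes are uncertain. Symbols came from GENCODE mouse release 21, with the version suffix removed, and 55141 identifiers had one.

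Expected counts were rounded to whole numbers. Genes were kept by filterByExpr (13908), scaled by TMM and tested without covariates by the quasi-likelihood F test of edgeR 4.0.16 in R 4.3.3, with robust dispersions, Benjamini-Hochberg adjustment over all genes tested and a threshold of 0.05. Log2 levels used a prior count of 2. The SE is the log2 fold change over the square root of F. Alternatives used DESeq2 1.42.0, limma-voom in limma 3.58.1, other scalings, other filters and fewer libraries. Fits were tested on simulated data. The genes, lists, rules and alternatives were chosen with earlier results of these data known, and the length correction (a lowess of centred log2 CPM on log2 length, as an offset) and the lists without the shallow pair were added after seeing the data. By rule the 10 genes, Tbl1xr1, Hsf1 and Hspd1 were named, with the genes past the threshold or with the smallest p in each list, and the 3 genes nearest in pattern to Hspa1b, Hsp90aa1, Dnajb1 and Hsph1. Replicates differed by more than sampling noise in every pair.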

Additional observations from a re-analysis of the deposited data

Results flagged for a closer look

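Of 34 groups of 4 values examined (10 CPM levels and 7 ratios in each group), 3 had 1 library far from the other 3 by Dixon's criterion, which chance meets in about 1 of 20 groups. Dnajb1 was at 42.2 CPM in shTbl1xr1 3, where the next library had 25.0 CPM. Hsph1 was at 54.4 CPM in the same shTbl1xr1 3, where the next had 32.9 CPM. The share of Hspa1b in the summed counts of Hspa1a and Hspa1b was 98.2% in shTbl1xr1 2, where Hspa1a had 1 count, and the next library had 86.2%.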

How the results depend on the processing

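Of the 10 heat shock genes 0 were called in every setting except without shTbl1xr1 3 and 4, where 4 were (Hspa8 at -0.82, Dnajb1 at -0.66, Hsph1 at -1.23 and Hspe1 at 1.04). With any 1 library left out the count stayed at 0, the median of the 10 genes was between -0.55 and -0.15, and Hspa1a and Hspa1b summed were between -1.06 and 0.005 (without shNC 4). The summed value turned to 0.10 without shTbl1xr1 1 and 2. The median was -0.66 when libraries were scaled by size alone, a setting that moved the median of all genes to -0.27. In that setting Hspb1 had -0.082. Hsp90ab1 turned positive with DESeq2 size factors (0.008), DESeq2 (0.008), limma-voom (0.033), the length trend removed (0.054) and without shTbl1xr1 3 and 4 (0.18), and with 1 library left out it lay between -0.11 and 0.11. Without shTbl1xr1 1 and 2, Hspa1a had 0.47, Hspa1b 0.05, Hspb1 -0.17 and Hspe1 -0.29, and with the length trend removed Hspb1 had -0.063. Leaving out 1 library put Hspa1a between -0.70 and 0.54. Hsph1, Hspa8, Dnajb1, Hsp90aa1 and Dnaja1 kept a negative log2 fold change in all 19 alternatives. The count at an unadjusted p under 0.05 was 2 with all libraries, where 3.71% of all genes tested were lower. It was 1 with DESeq2 size factors, limma-voom, the replicate block or the length trend removed, where 3.65% to 5.22% were lower. It was 3 with library size alone, where 6.38% were lower, and 4 without shTbl1xr1 3 and 4. In that last setting 3819 of the 14314 genes tested (26.7%) were lower and 3546 were higher. The cause of the turns was not tested.

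Replicate numbers are shared by the groups, but the labels do not say that same-numbered libraries belong together, so they were not taken as pairs. Their deviations from the group means had correlations of 0.379, -0.074, 0.305 and 0.12 for numbers 1 to 4. Differently numbered libraries had -0.377 to 0.375. The split of the shallow pair enters these correlations, so they cannot decide on pairing. With the replicate block 0 of the 10 genes were called, their median was -0.45, Hspa1a and Hspa1b summed had -0.80, and 5 genes of all tested were called against 7 without it. Over all genes, DESeq2 called 241 genes higher and 45 lower where edgeR called 6 and 1, and without shTbl1xr1 3 and 4 edgeR called 3073 and 3021. With the length trend removed edgeR called 26 and 3, and without a filter on low counts 12 and 1. When shNC 1, 2 or 4 was left out it called 0 of all genes. With 1 to 223 counts of Hspa1a in shTbl1xr1, counting error alone is large in the shallow pair.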
